A study of Mus musculus with 18 samples.

Results

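The IL-1 family was followed through 10 transcripts of mouse eosinophils: the ligands Il1a, Il1b and Il18, the secreted inhibitors Il1rn and Il18bp, the decoy receptor Il1r2, and the receptor chains Il1rap, Il1rl1, Il1rl2 and Il18rap. They were taken as the rows of the deposited table whose Ensembl gene identifier, with its version dropped, maps to these symbols. They are 10 of the 54446 genes in the table, and all 10 were found.

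IL-1α and IL-1β, encoded by Il1a and Il1b, are inflammatory cytokines that signal through a receptor built from IL-1R1 and the shared accessory chain that Il1rap encodes. Il1rn encodes the IL-1 receptor antagonist, which occupies that receptor without signalling, Il1r2 encodes a decoy that binds IL-1 and lacks a signalling domain, and Il18bp encodes a secreted protein that binds and neutralises IL-18. Il1rl1 encodes ST2, the receptor for IL-33, through which eosinophils and other cells of Type 2 immunity are activated, Il1rl2 encodes the receptor for IL-36, and Il18rap encodes the accessory chain of the IL-18 receptor.

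Peritoneal eosinophils came from C57BL/6 Il5Tg mice, whose transgene supplies the eosinophil growth factor IL-5, and shared 18 h of culture with apoptotic cells (ACs) at 5 per eosinophil. The ACs were thymocytes of wild-type mice treated with dexamethasone, and eosinophils were selected again with anti-Siglec-F beads before their RNA was sequenced from its 3′ ends by CEL-Seq2. In the Type 1 experiment 12 libraries, 3 per group, came from cells given only ACs, ACs and E. coli, ACs and IFN-γ, or ACs with both, and in the IL-4 experiment 6 libraries came from cells given only ACs or ACs and IL-4, again 3 per group. Every group held ACs, the controls included, so each comparison gives the effect of a stimulus on eosinophils cultured with ACs. The study describes the combination as IFN-γ followed by E. coli, and its methods do not give the order of ACs and stimulus. Cells from Il5Tg mice develop under raised IL-5, which limits them as a model. The study's methods call replicates biological, but the labels tie no library to an animal or culture. The p-values below rest on the spread between libraries within groups. Those from limma use 1 estimate of it per gene, pooled over all groups of a fit, although groups differed in spread.

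Between 779421 and 7782072 reads fell on genes in a library (median 4461121). Replicate 3 of both groups in the IL-4 experiment was shallow, with 849705 reads for IL-4 + ACs and 779421 for ACs, and there 3 reads stood for normalized counts of 15.42 and 16.08. Of the 9 eosinophil markers, Siglecf ranged from 1514 to 3367 normalized counts and Ccr3 from 2623 to 4934 over the 18 libraries, whereas Epx, the eosinophil peroxidase gene, averaged 5.33. Markers of other cells moved with the stimuli: the sum of 10 macrophage markers was 15354 to 19386 with ACs, 7905 to 9394 with E. coli + ACs, 21596 to 30831 under IFN-γ + ACs and 9153 to 9451 under both stimuli. The sum of 9 neutrophil markers was 103 to 122, 678 to 822, 199 to 298 and 378 to 426 in the same groups. The 11 thymocyte and T cell markers, which would mark carried-over ACs, summed to 59.4 to 374 normalized counts over all libraries. The part of these cells in the changes of the IL-1 family was not tested, and in such bulk libraries fewer cells of a type and less RNA per cell cannot be told apart.

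A normalized count is the number of reads on a gene divided by a size factor for its library, as deposited. Each transcript was tested with limma on log2(normalized count + 1) among genes with a mean of at least 10, a filter that all 10 members passed, and a transcript was called higher or lower where it changed by 1.5-fold or more with a p under 0.05 after Benjamini-Hochberg adjustment, named limma adjusted p below. On this scale the change of low transcripts is understated. In the Type 1 experiment all stimuli share the same 3 ACs libraries.

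Most of the family responded to the Type 1 stimuli. With E. coli + ACs, 5 of the 10 transcripts rose and none fell, where 5.05% of all tested genes rose and 5.25% fell. With IFN-γ + ACs, 5 rose and 4 fell, against 11.4% and 9.96% of all tested genes. With IFN-γ + E. coli + ACs, 6 rose and 2 fell, against 14.7% and 17.2%. The median log2 fold change of the 10 transcripts was 0.63, 0.82 and 1.51 under the 3 stimuli, where the median of all tested genes was 0.00, 0.00 and -0.05. Rescaling the libraries to a common upper quartile lowered the median of all genes by 0.14 (log2) under IFN-γ + E. coli + ACs and moved the share of calls that were higher from 46.1% to 34.4%, but it turned the direction of no called member. With IL-4 + ACs none of the 10 was called by limma, where 0.740% of all tested genes rose and 0.347% fell.

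**Figure D1:**
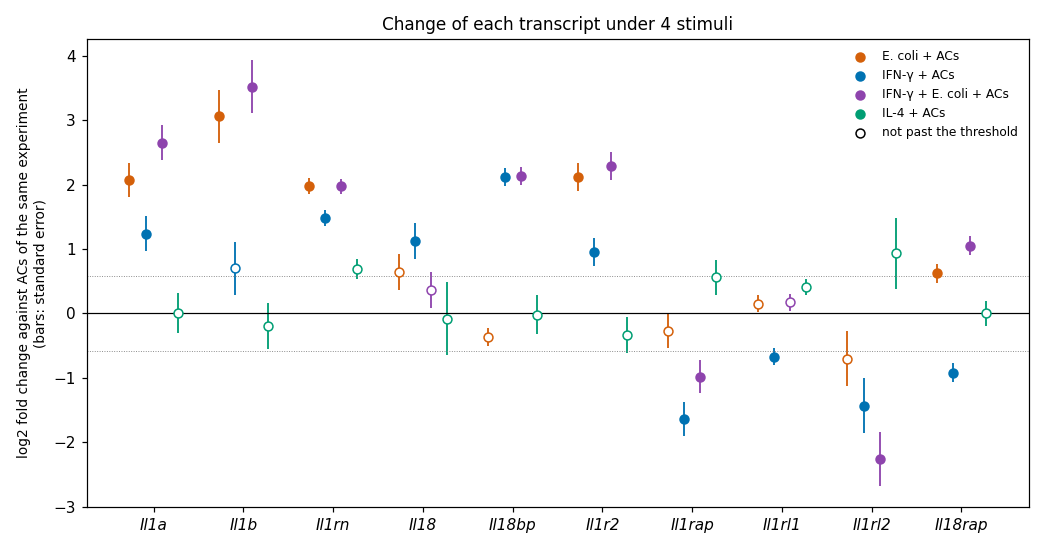
Log2 fold change (y axis, limma estimate with its standard error) of each of the 10 transcripts (x axis) under 4 stimuli, each against the ACs libraries of its own experiment. Filled points passed the threshold, open points did not, and dotted lines mark 1.5-fold; Il1b under IFN-γ + E. coli + ACs is the highest point at 3.52 and Il1rl2 under the same stimulus the lowest at -2.26.

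Il1a (ENSMUSG00000027399.1, chromosome 2, 129299610 to 129309972, minus strand of GRCm38) and Il1b (ENSMUSG00000027398.13, chromosome 2, 129364570 to 129371139, minus strand) lie 54597 bases apart, and both rose with E. coli, alone or with IFN-γ. Il1a had 56.1, 25.3 and 36.7 normalized counts with ACs, 149, 164 and 168 with E. coli + ACs, 68.6, 109 and 96.5 under IFN-γ + ACs, and 285, 167 and 289.7 under both stimuli. Every stimulated library lay above every ACs library. Il1a rose 4.19-fold with E. coli (log2 2.07 ± 0.27 SE, limma adjusted p = 2.3e-05), 2.36-fold with IFN-γ (1.24 ± 0.27, 0.0017) and 6.27-fold with both (2.65 ± 0.27, 2.4e-07).

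Il1b was low with ACs, at 3.25, 12.2 and 8.97 normalized counts, and at 72.8, 62.1 and 68.6 with E. coli + ACs. Under IFN-γ + ACs it had 7.91, 10.3 and 22.6, within reach of the ACs libraries, and under both stimuli 111, 96.5 and 75.9. The libraries with E. coli thus lay apart from those without it. Il1b rose 8.34-fold with E. coli (log2 3.06 ± 0.41 SE, limma adjusted p = 3.7e-05) and 11.5-fold with IFN-γ + E. coli (3.52 ± 0.41, 1.7e-06), and its difference with IFN-γ alone was 0.70 ± 0.41 (adjusted p = 0.23). The lowest ACs library held 4 reads of Il1b, so its fold changes rest on few reads there. The counting did not state whether strand was used, and the antisense genes Gm14023 over Il1a and Il1bos over Il1b, at most 12.3 and 2.85 normalized counts, could have given reads to them.

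Il1rn (ENSMUSG00000026981.15, chromosome 2, 24336853 to 24351494, plus strand), the receptor antagonist, was raised by every Type 1 stimulus. It had 1592, 1396 and 1313 normalized counts with ACs and 5989.8, 5195 and 5804 with E. coli + ACs. Under IFN-γ + ACs these were 3693, 4124 and 4203, and under both stimuli 5782, 4795 and 6299.7. The IFN-γ libraries lay between the ACs libraries and those with E. coli, and the groups with E. coli overlapped. The rise was 3.95-fold with E. coli (log2 1.98 ± 0.12 SE, limma adjusted p = 1.7e-09), 2.80-fold with IFN-γ (1.48 ± 0.12, 1.3e-08) and 3.91-fold with both (1.97 ± 0.12, 1.7e-10).

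Il18 (ENSMUSG00000039217.13, chromosome 9, 50554827 to 50581840, plus strand) was called higher by limma with IFN-γ + ACs and under no other stimulus. Its normalized counts were 24.4, 41.3 and 30.2 with ACs, 50.2, 43.3 and 54.5 with E. coli + ACs, 63.3, 76.8 and 67.7 under IFN-γ + ACs, and 37.1, 30.5 and 59.3 under both stimuli. The IFN-γ libraries lay above all others of the experiment, and those with both stimuli overlapped the ACs libraries. The change was 1.12 ± 0.28 (log2, SE) with IFN-γ (limma adjusted p = 0.0053), 0.64 ± 0.28 with E. coli (0.15) and 0.37 ± 0.28 with both (0.31). In a fit of all 18 libraries the adjusted p of the IFN-γ comparison was 0.057, and with array weights the E. coli change of 0.65 passed at 0.039. The gene overlaps Bco2 on the opposite strand, which had at most 27.6 normalized counts.

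Il18bp (ENSMUSG00000070427.4, chromosome 7, 102014885 to 102018690, minus strand) rose in both groups that received IFN-γ. It encodes the IL-18 binding protein. It had 234, 246 and 207 normalized counts with ACs and 177, 158 and 199.7 with E. coli + ACs, but 1115, 1063 and 839 under IFN-γ + ACs and 1120.4, 923 and 977 under both stimuli. The groups with IFN-γ overlapped each other and lay far above the groups without it. Il18bp rose 4.35-fold with IFN-γ (log2 2.12 ± 0.14 SE, limma adjusted p = 1.3e-09) and 4.38-fold with both stimuli (2.13 ± 0.14, 8.4e-10), and differed by -0.36 ± 0.14 with E. coli (0.1). Macrophage markers moved too: of the 10 listed, 3 rose and 1 fell with IFN-γ, and Marco (log2 0.84 ± 0.16 SE, limma adjusted p = 3.3e-04) and Adgre1 (0.72 ± 0.10, 1.2e-05) rose and 6 fell with both. Of all tested genes 11.4% rose and 9.96% fell with IFN-γ, and 14.7% and 17.2% with both. The part of macrophages in the rise of Il18bp was not tested. The end of Il18bp overlaps Numa1 on the opposite strand, at 122 to 286 normalized counts.

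**Figure D2:**
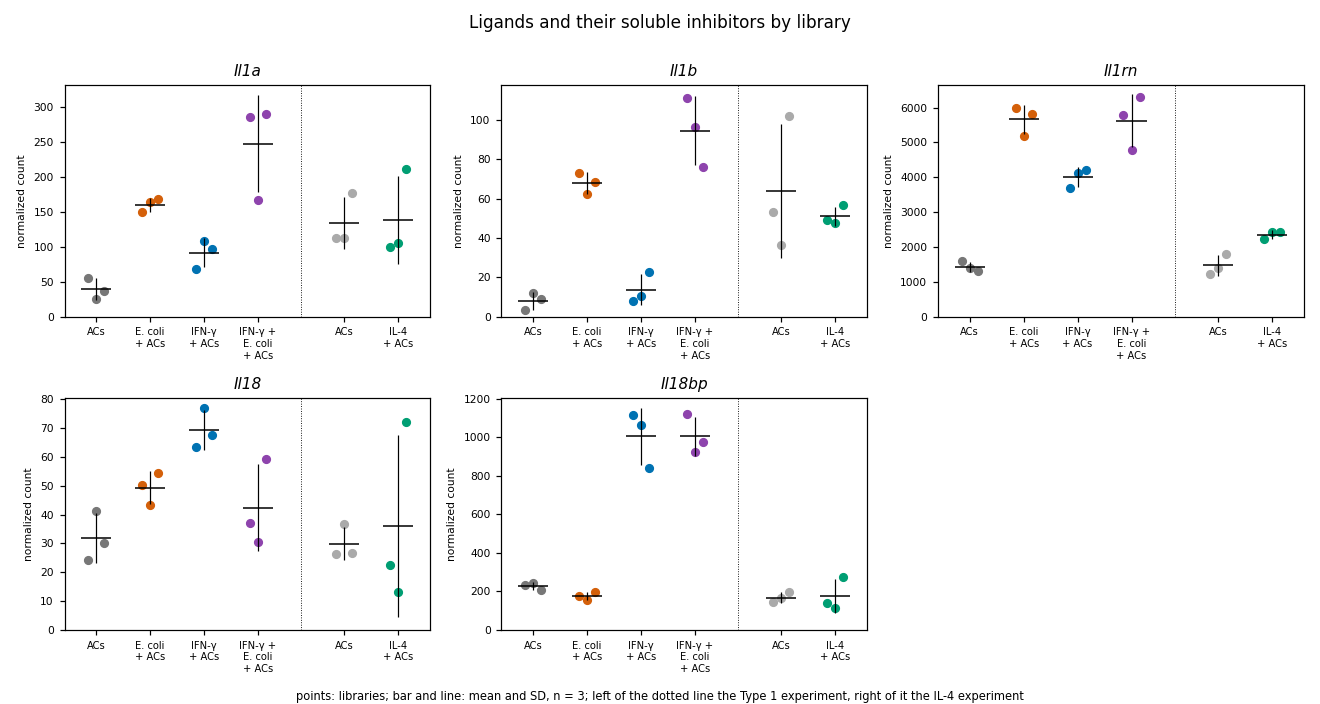
Normalized counts (y axis, linear from 0) of Il1a, Il1b, Il1rn, Il18 and Il18bp in each library (points) of the 6 groups (x axis), with the mean and SD of 3 libraries. Il1b was at 36.6 or more in the groups with E. coli and in both groups of the IL-4 experiment, and Il18bp lay between 839 and 1120.4 in the groups with IFN-γ, above all other libraries.

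The balance of inhibitor and ligand was compared as the log2 ratio of their normalized counts in each library, each plus 1. A difference between groups of 3 cannot reach a two-sided exact permutation p below 0.10. The ratio of Il1rn to Il1b was 8.55, 6.73 and 7.04 with ACs and 6.34, 6.36 and 6.38 with E. coli + ACs, a difference of -1.08 with no overlap (exact permutation p = 0.10). It was 8.70, 8.51 and 7.48 with IFN-γ + ACs, which overlapped ACs (difference 0.79, exact permutation p = 0.30), and 5.69, 5.62 and 6.36 under both stimuli (difference -1.55, exact permutation p = 0.10). Without ACs replicate 1, where Il1b had 4 reads, the difference was -0.52 with E. coli, 1.34 with IFN-γ and -1.0 with both, and leaving out any 1 library gave -1.43 to -0.52, 0.43 to 1.34 and -1.91 to -1.0. In both groups with E. coli every ratio lay below the ACs libraries, although Il1rn itself rose there.

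The ratio of Il18bp to Il18 was 3.21, 2.55 and 2.74 with ACs and moved the other way under the 2 single stimuli. With E. coli + ACs it was 1.79, 1.84 and 1.85, below every ACs library (difference -1.0, exact permutation p = 0.10). With IFN-γ + ACs it was 4.12, 3.77 and 3.61, and under both stimuli 4.88, 4.87 and 4.02, above every ACs library (differences 1.00 and 1.76, exact permutation p = 0.10 for each). In the IL-4 experiment the Il1rn to Il1b ratio was 0.89 higher with IL-4 + ACs (exact permutation p = 0.10), with no overlap, and the Il18bp to Il18 ratio differed by 0.06 (exact permutation p = 0.90).

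**Figure D3:**
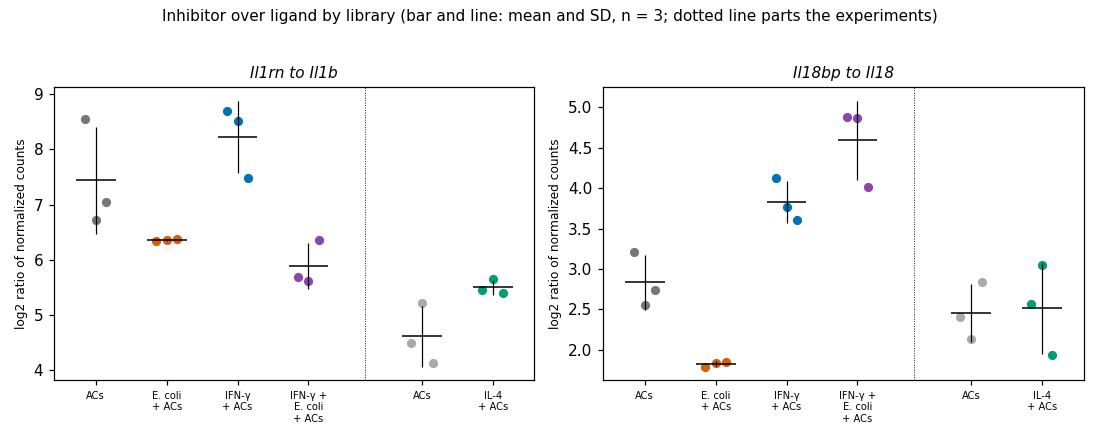
Log2 ratio (y axis) of Il1rn to Il1b and of Il18bp to Il18 in each library (points), with the mean and SD of 3 libraries per group (x axis). The E. coli + ACs libraries sit close together at 6.34 to 6.38 and at 1.79 to 1.85, below the ACs libraries of the Type 1 experiment in both panels.

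Of the 5 receptor genes, 4 lie on chromosome 1 of GRCm38 on the plus strand within 477627 bases that hold 6 protein-coding genes of the family: Il1r2 (ENSMUSG00000026073.13, 40074079 to 40125231), Il1r1, Il1rl2 (ENSMUSG00000070942.8, 40324610 to 40367562), Il1rl1 (ENSMUSG00000026069.15, 40429570 to 40465415), Il18r1 and Il18rap (ENSMUSG00000026068.11, 40515362 to 40551705). Their promoters are shown because some of these neighbours rose and others fell under the same stimuli. RefSeq gave 13 promoter windows for the 10 members, each of 300 bases (250 before and 50 after a transcript start, GRCm38.p6), and all 10 matched. Both strands were searched for GGAANTTCC, a form of the site bound by NF-κB, for TTCNNNGAA, the site of STAT factors, and for GAAANNGAA, the core of the interferon-stimulated element. Among 32851 promoter windows of that length, 0.928% held the first, 8.30% the second and 8.56% the third. GGAANTTCC was found in windows of Il1r2, Il1rl2, Il1rl1 and Il18rap, in that of Il1r2 overlapping a TTCNNNGAA match, and in none of the 6 other members, and GAAANNGAA was found in Il1rap alone. Il1rl1 has 2 windows and the match is in the second of them. A match describes letters and does not show a bound site. The windows with a match follow, 5′ to 3′ on the gene's strand, with the matched letters in capitals.
Il1r2, chr1:40085843-40086142, plus strand: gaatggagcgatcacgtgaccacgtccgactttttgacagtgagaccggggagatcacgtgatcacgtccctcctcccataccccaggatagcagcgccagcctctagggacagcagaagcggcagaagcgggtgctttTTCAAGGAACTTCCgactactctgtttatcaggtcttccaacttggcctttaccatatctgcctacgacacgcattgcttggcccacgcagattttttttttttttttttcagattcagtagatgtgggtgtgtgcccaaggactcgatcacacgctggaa
Il1rl2, chr1:40324339-40324638, plus strand: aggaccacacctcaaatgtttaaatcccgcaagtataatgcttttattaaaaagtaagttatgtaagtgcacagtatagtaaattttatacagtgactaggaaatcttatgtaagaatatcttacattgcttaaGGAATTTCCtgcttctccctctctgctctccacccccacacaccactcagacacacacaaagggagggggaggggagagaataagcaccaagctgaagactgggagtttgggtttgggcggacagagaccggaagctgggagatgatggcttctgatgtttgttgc
Il1rl1, chr1:40439379-40439678, plus strand: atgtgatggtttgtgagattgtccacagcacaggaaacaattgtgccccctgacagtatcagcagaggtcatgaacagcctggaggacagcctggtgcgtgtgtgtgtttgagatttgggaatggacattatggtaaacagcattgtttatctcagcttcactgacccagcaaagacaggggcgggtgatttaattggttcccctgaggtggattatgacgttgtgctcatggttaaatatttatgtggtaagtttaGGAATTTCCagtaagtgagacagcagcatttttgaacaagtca
Il18rap, chr1:40515112-40515411, plus strand: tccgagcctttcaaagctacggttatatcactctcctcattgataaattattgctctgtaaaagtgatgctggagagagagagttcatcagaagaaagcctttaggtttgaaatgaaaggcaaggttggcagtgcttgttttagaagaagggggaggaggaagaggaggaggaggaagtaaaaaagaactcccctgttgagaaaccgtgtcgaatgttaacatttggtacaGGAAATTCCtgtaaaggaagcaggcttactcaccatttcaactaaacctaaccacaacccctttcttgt
Il1rap, chr16:26581455-26581754, plus strand: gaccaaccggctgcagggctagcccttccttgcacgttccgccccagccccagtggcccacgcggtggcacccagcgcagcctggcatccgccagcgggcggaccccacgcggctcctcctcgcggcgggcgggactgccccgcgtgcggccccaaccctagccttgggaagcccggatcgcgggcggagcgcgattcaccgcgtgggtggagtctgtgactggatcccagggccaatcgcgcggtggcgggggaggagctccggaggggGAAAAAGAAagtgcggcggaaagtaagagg

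Il1r2, the decoy receptor, rose under all 3 Type 1 stimuli. It had 126, 106 and 111 normalized counts with ACs, 426, 614 and 471 with E. coli + ACs, 148, 234 and 312 under IFN-γ + ACs, and 696, 562 and 453 under both stimuli. All stimulated libraries lay above the ACs libraries, and the IFN-γ libraries below those with E. coli. The rise was 4.34-fold with E. coli (log2 2.12 ± 0.22 SE, limma adjusted p = 1.8e-06), 1.93-fold with IFN-γ (0.95 ± 0.22, 0.0032) and 4.89-fold with both (2.29 ± 0.22, 1.3e-07). Neutrophil markers moved too: of the 9 listed 4 could be tested, and 3 rose with E. coli, 3 with IFN-γ and 4 with both. Of all tested genes 5.05%, 11.4% and 14.7% rose. Ly6g, with means of 3.74, 5.92, 21.6 and 17.8 in ACs, E. coli + ACs, IFN-γ + ACs and both, passed the filter through stimulated groups. So did S100a9, with 2.17, 42.4, 14.5 and 26.0, and the filter thus favoured their calls. Cxcr2 was not called with IFN-γ (log2 0.22 ± 0.26 SE, limma adjusted p = 0.58). Cxcr2 had means of 52.0, 332, 62.9 and 196 normalized counts in ACs, E. coli + ACs, IFN-γ + ACs and under both stimuli, and S100a8 47.3, 330.4, 128 and 146. Of the granule genes below the filter, Ngp had means of 1.44, 11.2, 4.33 and 6.35 and Camp 0.313, 4.24, 2.89 and 2.96, and Mpo and Elane were at 0 in every stimulated library of the Type 1 experiment. The part of neutrophils in the rise of Il1r2 was not tested.

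Il1rap (ENSMUSG00000022514.14, chromosome 16, 26581704 to 26730117, plus strand), whose product pairs with the receptors for IL-1, IL-33 and IL-36, fell with IFN-γ. Its normalized counts were 108, 95.7 and 76.7 with ACs and 68.7, 92.4 and 71.2 with E. coli + ACs, which overlapped. They were 43.5, 22.9 and 24.6 under IFN-γ + ACs and 42.8, 55.0 and 42.8 under both stimuli, below every ACs library. The change was -1.64 ± 0.26 (log2, SE) with IFN-γ (limma adjusted p = 1.0e-04), -0.98 ± 0.26 with both (0.0063) and -0.27 ± 0.26 with E. coli (0.58).

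Il1rl1, which encodes the IL-33 receptor ST2, was well above the filter in every library and fell with IFN-γ alone. It had 4495, 4611 and 5215 normalized counts with ACs and 3017, 2595 and 3431 with IFN-γ + ACs, with no overlap. With E. coli + ACs it had 4752, 5785 and 5383 and under both stimuli 6018, 4531 and 5657, each group overlapping ACs. Il1rl1 was 1.59-fold lower with IFN-γ (log2 -0.67 ± 0.13 SE, limma adjusted p = 5.8e-04), and without replicate 2 of IFN-γ + ACs the change of -0.57 no longer reached 1.5-fold. It differed by 0.15 ± 0.13 with E. coli (0.51) and 0.17 ± 0.13 with both (0.31). The sum of the 9 eosinophil markers was lower in the same group, at 16332 to 17749.7 in ACs, 10002 to 11251 under IFN-γ + ACs and 14439.8 to 17093 under both stimuli. Alox15 was the largest part of it, with means of 9408 in ACs and 5456 under IFN-γ + ACs. Of the 7 markers that could be tested 4 fell with IFN-γ, where 9.96% of all tested genes fell. Ccr3 (log2 -0.14 ± 0.11 SE, limma adjusted p = 0.36), Prg2 and Ear2 were not called. The part of eosinophil markers in the falls under IFN-γ was not tested. ST2 is also carried by mast cells, whose 9 markers together with those of basophils summed to 22.5 to 73.4 normalized counts over the 18 libraries. Only Cpa3, a mast cell protease gene, could be tested among them in the Type 1 experiment. It passed the filter through the groups with IFN-γ, so its rise there is partly a product of the filter. Cpa3 had means of 4.07 with ACs, 25.4 with IFN-γ + ACs (log2 2.75 ± 0.70 SE, limma adjusted p = 0.0062) and 31.3 under both stimuli (3.03 ± 0.70, 0.002). Below the filter, Cd200r3 averaged 15.9, 4.16 and 5.29 in these groups and Kit 1.67, 1.56 and 4.09. Tpsb2 averaged 6.37, 10.0 and 8.10, and Cma1 1.98, 9.93 and 9.32. The listed markers thus did not move together. The part of mast cells in the level of Il1rl1 was not tested.

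Il1rl2, the IL-36 receptor gene, fell in both groups that received IFN-γ. It had 48.8, 45.0 and 38.3 normalized counts with ACs, 25.9, 19.6 and 36.9 with E. coli + ACs, 14.5, 16.1 and 16.4 under IFN-γ + ACs, and 9.98, 3.66 and 15.2 with both. All stimulated libraries lay below the ACs libraries, the E. coli group by the least. Il1rl2 was 2.70-fold lower with IFN-γ (log2 -1.43 ± 0.42 SE, limma adjusted p = 0.016) and 4.78-fold lower with both (-2.26 ± 0.42, 3.0e-04), and its difference with E. coli was -0.70 ± 0.42 (0.32). Without ACs replicate 1 the adjusted p of the IFN-γ comparison was 0.061 and without ACs replicate 2 it was 0.052. The lowest library held 3 reads of this transcript.

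Il18rap, the accessory chain of the IL-18 receptor, moved in opposite directions under the 2 single stimuli. It had 200.1, 194 and 205 normalized counts with ACs, 306, 347 and 274 with E. coli + ACs, 109, 124 and 86.2 under IFN-γ + ACs, and 409, 419 and 419 with both. The 4 groups did not overlap. The change was 0.62 ± 0.15 (log2, SE) with E. coli (limma adjusted p = 0.0097), -0.92 ± 0.15 with IFN-γ (1.5e-04) and 1.05 ± 0.15 with both (2.1e-05). Without E. coli + ACs replicate 2 the E. coli change was 0.53 with an adjusted p of 0.066.

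**Figure D4:**
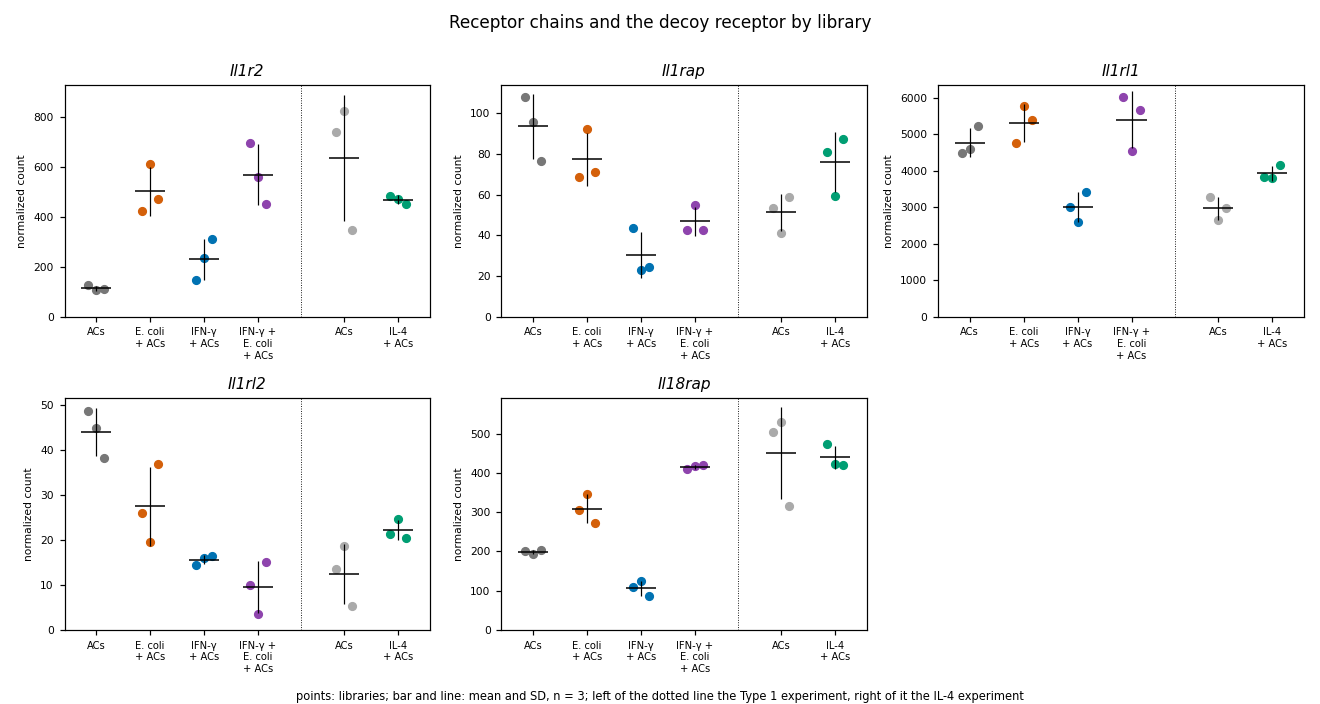
Normalized counts (y axis, linear from 0) of Il1r2, Il1rap, Il1rl1, Il1rl2 and Il18rap in each library (points) of the 6 groups (x axis), with the mean and SD of 3 libraries. Il18rap was lowest with IFN-γ + ACs, at 86.2 to 124, and highest in the Type 1 experiment under both stimuli, at 409 to 419.

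The single stimuli were then set against each other and against their combination. With IFN-γ + ACs against E. coli + ACs, Il18bp was higher (log2 2.49 ± 0.14 SE, limma adjusted p = 2.2e-10) and 6 members were lower, among 9.84% higher and 6.72% lower of all tested genes. The 6 were Il1b (-2.36 ± 0.41, adjusted p = 3.1e-04), Il18rap (-1.54 ± 0.15, 4.5e-07), Il1rap (-1.37 ± 0.26, 7.8e-04), Il1r2 (-1.17 ± 0.22, 6.8e-04), Il1a (-0.83 ± 0.27, 0.033) and Il1rl1 (-0.82 ± 0.13, 1.0e-04). The Il1a call was lost without any of the 3 E. coli + ACs libraries or without IFN-γ + ACs replicate 1 or 3, at -0.64 to -0.88 with adjusted p-values of 0.052 to 0.14.

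Adding E. coli to IFN-γ raised 5 members and lowered none, among 5.96% and 8.61% of all tested genes. These were Il1b (log2 2.82 ± 0.41 SE, limma adjusted p = 8.1e-05), Il18rap (1.97 ± 0.15, 1.6e-07), Il1a (1.41 ± 0.27, 9.3e-04), Il1r2 (1.34 ± 0.22, 2.8e-04) and Il1rl1 (0.84 ± 0.13, 1.3e-04). Il18bp, at 0.01 ± 0.14, showed no detectable difference. With IFN-γ + E. coli + ACs against E. coli + ACs, Il18bp was higher (2.49 ± 0.14, 2.3e-10) and Il1rl2 lower (-1.56 ± 0.42, 0.011), among 9.79% and 9.57% of all tested genes. Without E. coli + ACs replicate 3 the Il1rl2 change was -1.33 with an adjusted p of 0.066. In this last comparison upper-quartile rescaling lowered the median of all genes by 0.10 and moved the share of calls that were higher from 50.6% to 36.3%.

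Whether E. coli acted differently with IFN-γ present was tested as an interaction, the log2 effect of E. coli with IFN-γ minus that without it. It was called positive for 2 members and negative for 2, where 3.16% and 4.28% of all tested genes were. Il18rap gained more from E. coli with IFN-γ than without it (1.35 ± 0.22 SE, limma adjusted p = 7.6e-04), and so did Il1rl1 (0.69 ± 0.18, 0.024), whose difference with E. coli alone was 0.15. Il1rn gained less (-1.50 ± 0.17, 1.6e-05): E. coli raised it by 1.98 without IFN-γ, and the difference with IFN-γ was 0.48. For Il18 the effect of E. coli was 0.64 without IFN-γ and -0.75 with it (interaction -1.39 ± 0.39, 0.037). The calls for Il18 and Il1rl1 were lost in several alternatives, with adjusted p-values of 0.072 and 0.065 when genes of low level were kept. For the other 6 members the interaction ranged from -0.77 (Il1r2, adjusted p = 0.14) to 0.93 (Il1rap, 0.14).

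**Figure D5:**
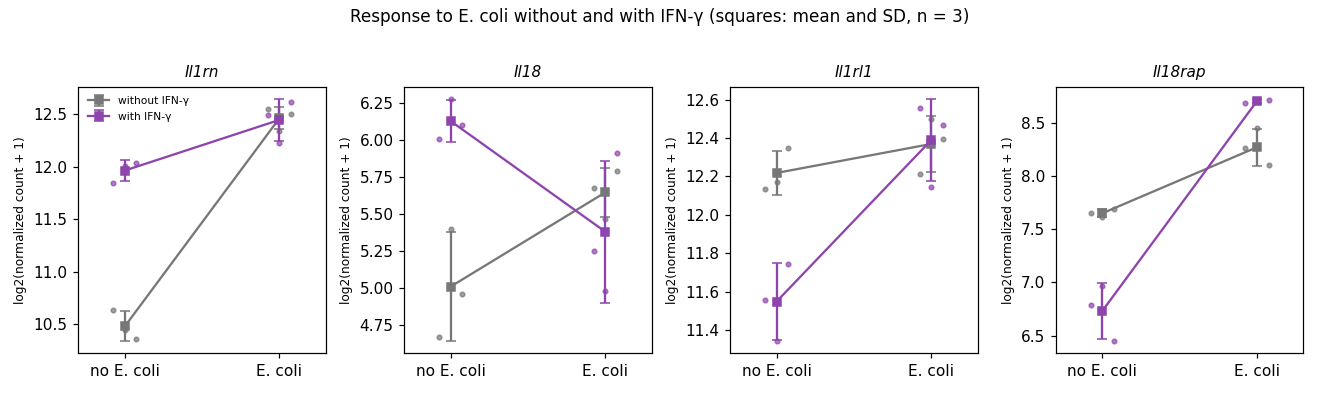
Log2(normalized count + 1) (y axis) of Il1rn, Il18, Il1rl1 and Il18rap without and with E. coli (x axis), in eosinophils without IFN-γ (grey) and with it (purple). Small points are libraries and squares the mean with SD of 3. Lines that are not parallel show the interactions of -1.50, -1.39, 0.69 and 1.35; the y axes do not start at 0.

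In the 6 libraries of the IL-4 experiment limma called none of the 10 members with IL-4 + ACs. At an unadjusted p under 0.05 limma gave 2 members, Il1rn and Il1rl1, edgeR gave 4 and DESeq2 gave 2. Of the 10669 genes tested, the same methods gave 1030, 1323 and 892. After adjustment and the fold threshold edgeR and DESeq2 each called 1 member, Il1rn. Over all genes edgeR then called 127 higher and 85 lower, and DESeq2 128 and 81. Il1rn had 1232, 1390.4 and 1801 normalized counts with ACs and 2216, 2428 and 2421 with IL-4 + ACs, with no overlap (log2 0.69 ± 0.15 SE, limma adjusted p = 0.081). Il1rl1 had 3275, 2651 and 2992 with ACs and 3831, 3805 and 4158 with IL-4 + ACs, again with no overlap (0.41 ± 0.12, 0.28). Il1r2 had 739.9, 824 and 348 with ACs and 486, 472 and 452 with IL-4 + ACs, where the shallow ACs library lay below the range of the others (-0.34 ± 0.28, 0.73).

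Without the shallow replicate 3 of both groups 656 of all genes were called, against 79 higher and 37 lower with all 6 libraries. Of the members 2 were called in that run: Il1rn was higher with IL-4 + ACs (log2 0.83 ± 0.10 SE, limma adjusted p = 5.9e-04) and Il1r2 lower (-0.70 ± 0.11, 0.0021). Without ACs replicate 3 alone these were 0.85 (adjusted p = 0.012) and -0.73 (0.034), and without IL-4 + ACs replicate 3 alone 0.67 (0.19) and -0.32 (0.81). The other members gave 0.93 ± 0.55 for Il1rl2 (adjusted p = 0.63), 0.56 ± 0.27 for Il1rap (0.55), -0.20 ± 0.36 for Il1b (0.89), -0.08 ± 0.56 for Il18 (0.98), -0.02 ± 0.30 for Il18bp (0.99), 0.00 ± 0.31 for Il1a (1) and 0.00 ± 0.20 for Il18rap (1). With standard errors up to 0.56, a 1.5-fold change would not have been detectable for the low transcripts. The limit was not theirs alone. Il1rn, one of the highest members, changed 1.62-fold with a standard error of 0.15 and missed the threshold (limma adjusted p = 0.081). For Il1a, Il18bp and Il1r2 the standard errors were 0.31, 0.30 and 0.28. The summed macrophage markers were 21590.2 to 31434 with ACs and 17876 to 28475 with IL-4 + ACs, and those of neutrophils 108 to 145 and 154 to 214.

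The response to IL-4 was set against the response to IFN-γ + E. coli in a fit of all 18 libraries, each response taken against the ACs libraries of its own experiment. The difference was called for 8 members, 2 higher and 6 lower under IL-4, where 9.67% and 10.8% of all tested genes were. The 2 higher were Il1rl2 (log2 3.18 ± 0.65 SE, limma adjusted p = 0.0012) and Il1rap (1.54 ± 0.38, 0.0055). Both fell with IFN-γ + E. coli + ACs (-2.26 and -0.98), and limma called none of the 10 members with IL-4 + ACs itself. The fewest reads of Il1rl2 in a library were 3 in the Type 1 and 1 in the IL-4 experiment. The 6 lower ranged from Il1b (-3.71 ± 0.60, 1.0e-04) to Il18rap (-1.05 ± 0.25, 0.0036). Il18 (-0.45 ± 0.59, 0.64) and Il1rl1 (0.24 ± 0.18, 0.38) were not called. Upper-quartile rescaling raised the median of all genes by 0.13 here and moved the share of calls that were higher from 47.3% to 59.3%. The ACs means of the IL-4 experiment, divided by those of the Type 1 experiment, also differed. Among members called lower they were 7.86 for Il1b, 5.57 for Il1r2, 3.40 for Il1a, 2.26 for Il18rap, 1.03 for Il1rn and 0.734 for Il18bp. Those called higher had 0.284 (Il1rl2) and 0.548 (Il1rap). The part of these starting levels in the calls was not tested.

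The ACs libraries of the 2 experiments differed for most of the family. The 3 ACs libraries of the IL-4 experiment lay above those of the Type 1 experiment for 4 members and below them for 4, where 22.4% and 19.9% of 10414 genes did so. Il1b averaged 64.0 ± 33.9 normalized counts (SD, n = 3) in the former and 8.14 ± 4.53 in the latter, Il1r2 637 ± 254 and 114 ± 10.4, Il1a 134 ± 37.2 and 39.4 ± 15.6, and Il18rap 450.4 ± 117 and 199.7 ± 5.23. In the other direction Il1rl2 averaged 12.5 ± 6.72 and 44.1 ± 5.30, Il1rl1 2972 ± 312 and 4774 ± 387, Il1rap 51.2 ± 9.06 and 93.5 ± 15.9, and Il18bp 168 ± 28.1 and 229 ± 19.9. Il1rn and Il18 overlapped. The labels name the same condition in both, and the reason for the difference was not tested. Every stimulus effect was therefore taken against libraries of its own experiment.

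Other ligands and receptors of the family were scarce. None of the 11 listed reached the mean of 10 needed for a test: Il33 averaged 8.56 normalized counts over the 12 Type 1 libraries, Il36g 6.18, Sigirr 4.14, Il18r1 3.87, Il36a 2.45, Il1r1 1.03 and Il1rapl1 0.543, while Il36rn and Il1rapl2 averaged 0 there. Il36b and Il1f10 had no read in any of the 18 libraries. The chains that bind IL-1 and IL-18 directly, Il1r1 and Il18r1, thus had at most 4 and 14 reads in a library, while the accessory chains Il1rap and Il18rap passed the filter.

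Of 19 genes that carry or restrain the signal of these receptors, 4 rose and none fell with E. coli, 6 rose and 1 fell with IFN-γ, 10 rose and none fell with both, and none was called with IL-4. Of all tested genes 5.05% rose and 5.25% fell with E. coli, 11.4% and 9.96% with IFN-γ, 14.7% and 17.2% with both, and 0.740% and 0.347% with IL-4, so a count of 0 among 19 with IL-4 is near the background. The median log2 fold change of the 19 was 0.23, 0.30, 0.60 and -0.08, where that of all genes was 0.00, 0.00, -0.05 and -0.01. Irak3, which encodes an inhibitory kinase of the pathway, rose by 1.61 ± 0.13 (log2, SE) with E. coli and 2.25 ± 0.13 with both (limma adjusted p = 8.4e-08 and 1.1e-10). Zc3h12a, whose product degrades inflammatory mRNAs, rose by 1.59 ± 0.16 with E. coli (1.6e-06), and Nfkbiz by 1.56 ± 0.20 with E. coli (1.7e-05) and 2.04 ± 0.20 with both (1.3e-07). Ikbkg, the regulatory subunit of the IκB kinase complex, rose by 1.37 ± 0.14 with IFN-γ (4.6e-07), Peli1 by 1.16 ± 0.19 (1.6e-04), and Irak2 by 1.66 ± 0.15 with both (4.8e-08). Tifa rose by 1.12 ± 0.23 with IFN-γ (0.0013). The gene that fell, named after its values were seen, was the kinase Irak4, by 0.96 on the log2 scale with IFN-γ (0.0024).

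Of 16 inflammasome and cytokine processing genes, 15 could be tested in the Type 1 experiment: 2 rose and 1 fell with E. coli, 8 rose and 1 fell with IFN-γ, and 7 rose and 1 fell with both. The shares of all tested genes that rose and fell were again 5.05% and 5.25%, 11.4% and 9.96%, and 14.7% and 17.2%, so 1 or 2 calls in a list of this size stand near the background. The median log2 fold change of the list was 0.30, 0.64 and 0.76, where that of all genes was 0.00, 0.00 and -0.05. Nlrp3, the sensor of the inflammasome that matures IL-1β and IL-18, rose by 2.07 ± 0.24 (log2, SE) with E. coli, 1.51 ± 0.24 with IFN-γ and 2.60 ± 0.24 with both (limma adjusted p = 5.7e-06, 8.3e-05 and 6.3e-08), and Casp1, the protease that cuts them, by 1.62 ± 0.14 with IFN-γ and 1.91 ± 0.14 with both (3.5e-08 and 2.6e-09). Pycard, the adaptor between the 2, fell by 0.72 with E. coli (9.9e-04). Mefv rose by 1.54 ± 0.47 with IFN-γ (0.019) and 1.79 ± 0.47 with both (0.0049), and Capn2, a calpain subunit gene named after its values were seen, fell by 1.33 with IFN-γ (2.6e-06). Gsdme rose by 1.43 ± 0.19 with E. coli (4.1e-05), and with IL-4 it was the 1 of 16 genes called, higher by 1.15 ± 0.23 (0.045). Of all tested genes 0.740% rose and 0.347% fell with IL-4. The interaction of IFN-γ and E. coli was called for Capn2 (1.15 ± 0.22, 0.0031) and for Ninj1 (-1.23 ± 0.20, 8.9e-04) in this list, and for none of the 19 signalling genes. It was positive for 3.16% and negative for 4.28% of all tested genes, so these counts stand near the background.

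For the 7 members with a mean of at least 50 over the 12 Type 1 libraries, the transcripts of most similar pattern were sought by Pearson correlation of log2(normalized count + 1) among 6747 genes with such a mean. The 12 points share the stimuli and their libraries, so these values only describe. Il18bp was closest to Lap3 (r = 0.990), Irf1 (0.988) and Psmb9 (0.987). Il1rn was closest to Ifitm1 (0.978), Tnfrsf1b (0.976) and Ehd1 (0.974), and Il1r2 to Ncf1 (0.970), Csf2rb (0.969) and Milr1 (0.963). Il18rap was closest to Nadk (0.968), Cish (0.964) and Ikzf3 (0.954), Il1rl1 to Cmtm6 (0.957), Lrrfip1 (0.957) and Ifngr1 (0.953), Il1rap to Siglece (0.958), Fam217b (0.940) and Golm1 (0.935), and Il1a to Nacc1 (0.957), Usp18 (0.955) and Fcgr3 (0.952).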

How the data were processed

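The deposited table holds, per the labels' processing notes, a signal for each gene and library: the authors trimmed reads with cutadapt 1.10, mapped them to GRCm38 with TopHat2 2.1.0, counted them with HTSeq 0.6.1 and divided the counts by DESeq2 1.26.0 size factors. The study's methods also describe a second pipeline, with fastp and STAR, and the strand setting of counting is not given in the sources used here. Every value (100.0%, tolerance 0.02) was a whole multiple of a step per library, from which whole reads were recovered for edgeR 4.0.16 and DESeq2 1.42.0. The 10 members and all gene lists were chosen with earlier results of these data known.

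Tests used limma 3.58.1 (lmFit, eBayes with a trend, R 4.3.3) on log2(normalized count + 1), with a mean of at least 10: 10166 genes in the 12 Type 1 libraries, 10669 in the 6 IL-4 libraries and 10414 in all 18. The fits were tested on simulated data. Named are all 10 members, all 11 other ligands and receptors, up to 3 called genes of largest change per comparison from the signalling and processing lists, and the 3 genes most like each member. Genes were placed with GENCODE M21, and promoter sequences are RefSeq's. Intervals and floors, such as 3 reads, cover counting error only. Replicates differed by a chi-square of 3.92 to 13.15 per degree of freedom, more than counting error. The residuals of same-numbered libraries correlated at a mean of 0.01 in both experiments. Eosinophils without ACs, proteins and protein sequences are not analysed here.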

Additional observations from a re-analysis of the deposited data

Results flagged for a closer look

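For 4 of the 10 members the effect of E. coli differed between eosinophils with and without IFN-γ, by the interaction term of the limma fit. Of all tested genes the term was called positive for 3.16% and negative for 4.28%. The difference of the 2 log2 effects was -1.50 for Il1rn, 1.35 for Il18rap, -1.39 for Il18 and 0.69 for Il1rl1. Il1rn and Il18rap passed in every alternative run. Il18 missed the threshold without ACs replicate 1 or 3, E. coli + ACs replicate 1 or 3, IFN-γ + ACs replicate 2 or IFN-γ + E. coli + ACs replicate 1 or 2, with limma adjusted p-values of 0.061 to 0.092. Il1rl1 missed it without ACs replicate 3, E. coli + ACs replicate 1 or 3, IFN-γ + ACs replicate 2 or IFN-γ + E. coli + ACs replicate 1, with adjusted p-values of 0.052 to 0.085. No explanation of these differences was tested.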

How the results depend on the processing

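Of the 48 calls of a member in a comparison, 40 held in all alternatives run, none changed direction, 4 were lost in at least 1 of 10 other settings and 7 without some library. Beside those named in the report, these were Il18 (limma adjusted p = 0.2 in a fit of all 18 libraries) and Il1rl1 in the interaction, and Il1a with IFN-γ against E. coli (0.056 without the filter and 0.07 in all 18). The IL-4 comparison moved most. There 0 members and 116 genes were called, against 1 and 208 without the filter, 2 and 745 with array weights, 1 and 212 with edgeR, 1 and 209 with DESeq2, and 1 and 221 in a fit of all 18 libraries. Without replicate 3 of both groups 2 members and 656 genes were called, and leaving out 1 library gave 0 to 2 members and 47 (without IL-4 + ACs replicate 1) to 130 genes. With the replicate number as a block 74 genes were called, and the block changed no member call. Same-numbered libraries had a mean residual correlation of 0.01 in both experiments, which with 3 libraries per group does not settle whether they were paired. IFN-γ + E. coli against E. coli had 2 members, 4 with edgeR and DESeq2 and 1 to 4 when 1 library was left out, 1 without E. coli + ACs replicate 3. The interaction had 4 members and 756 genes, 2 members without the filter, 495 genes in the fit of 18 libraries, and 2 to 6 members and 400 to 1026 genes when 1 library was left out.

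The reversed values were all of changes not called. For IL-4 these were Il1a and Il18bp (0.01 each, DESeq2) and Il1b (0.13 without replicate 3 of both groups). Leaving out 1 library gave -0.35 to 0.21 for Il1a, -0.53 to 0.20 for Il1b, -0.74 to 0.44 for Il18, -0.39 to 0.23 for Il18bp and -0.24 to 0.14 for Il18rap. Against IFN-γ, Il18bp under both stimuli was -0.04 with upper-quartile rescaling, -0.02 with array weights and -0.12 to 0.09 without a library. Against E. coli, Il1rn was 0.01 with DESeq2 and -0.10 to 0.09 without a library, and Il1rl1 -0.09 with rescaling and -0.06 to 0.14. In the interaction Il1rl2 was 0.04 with a pseudocount of 5 and -0.52 to 0.38 without a library, and Il1b -0.58 to 0.24. The IL-4 response minus that to IFN-γ + E. coli was -1.11 to 0.07 for Il18. The causes were not tested. Depth limits Il1b, Il18, Il1rap and Il1rl2, with as few as 1 to 11 reads in a library.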
